A study of Mus musculus with 2 samples.

Results

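A set of 41 genes of mitosis was read for histone methylation at gene ends in recently replicated cells of the mouse incisor pulp. They were chosen by function, as genes that build the spindle, the kinetochore and the condensed chromosome or that drive the cell into and out of division, and all 41 symbols were found among the 21631 protein-coding genes of the autosomes and X in the RefSeq table of mm10. The members were grouped into 9 roles: 8 kinases, 4 genes of cyclins and a phosphatase for mitotic entry, 7 kinetochore genes, 2 chromosomal passengers, 4 kinesins, 5 condensin genes, 4 genes of anaphase, 4 of cytokinesis, and 3 others of spindle and chromosome. CD1 mice at postnatal day 5, all given a single EdU dose of 3.3 µg per g, were the source of both libraries, and the incisor pulp was collected 24 h after the dose. EdU is a thymidine analogue that marks DNA made in S phase. EdU-positive cells were sorted as fixed cells, and each of the marks H3K4me3 and H3K27me3 was mapped in 1 library. Neither a genotype beyond the strain nor the number of pooled animals is stated in the labels. A cell that took up EdU 24 h earlier may since have divided or left the cycle, so the sort selects recent replication and not mitosis.

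The entry into mitosis is driven by Cdk1 with its A- and B-type cyclins, and the Polo and Aurora kinases then build the spindle. Kinetochores tie the chromosomes to microtubules, condensins compact the chromatids, and the anaphase-promoting complex ends the phase by marking cyclin B and securin for destruction. Most of these genes are transcribed in G2 and M phase and held down in resting cells by the DREAM complex, whose MuvB core contacts a short promoter element called CHR, next to CCAAT boxes bound by NF-Y. H3K4me3 is a mark of promoters that are active or ready for use, and H3K27me3 is laid down by Polycomb repressive complex 2.

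The values are islands of enrichment called by the authors, each with a position and the height of its summit in their own units. A member counts as marked if an island shares at least 1 bp with the 1 kb on either side of a gene end. Where several islands did, the widest stood for the gene. Heights were compared within a mark only. The depth of both libraries is unknown, and since each mark has 1 library, differences were described and not tested. Intervals on shares are exact binomial (Clopper-Pearson) 95% intervals that cover counting over genes only. Islands come from a mixture of cells, so a mark on some cells and a weak mark on all of them cannot be told apart, and a pair of marks at a gene may lie in different cells.

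As a check of the labelled tissue, all 6 mesenchyme markers looked up had an H3K4me3 island (Msx1, Prrx1, Pdgfra, Col1a1, Twist1 and Vim, heights 73 to 163). Of 5 epithelial markers 3 did (Epcam 58, Cdh1 46, Krt14 8), and so did 1 of 5 endothelial markers (Kdr, 65) and 1 of 5 blood markers (Cd68, 59). The summit of the Cd68 island lay 3706 bp downstream of the listed start of Cd68. The share over all protein-coding genes was 58.9%, so the epithelial count is near the background. Krt5, Pecam1, Cdh5, Tie1, Ptprc and Csf1r had none at their ends. H3K27me3 lay at 4 of the 6 mesenchyme markers (Msx1, Prrx1, Pdgfra and Twist1), 3 of the 5 epithelial, 2 of the 5 endothelial and 1 of the 5 blood markers, against 22.4% of all genes. These markers were chosen after other values had been seen, and the part of such cells in the values below was not tested.

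H3K4me3 lay at 40 of the 41 mitosis genes (97.6%, interval 87.1 to 99.9%), against 58.9% of all protein-coding genes. H3K27me3 lay at 2 of the 41 (4.88%, interval 0.596 to 16.5%), against 22.4% of all protein-coding genes and 28.5% of the genes with H3K4me3. The exceptions are named: Aurka, the centrosomal Aurora kinase, had neither mark, a state shared by 35.4% of all genes, and Racgap1 and Mki67 had both marks, a state of 16.8% of all genes. When islands inside the gene were counted as well, the members' counts were again 40 and 2, beside 62.7% and 25.2% of all genes. Counting only the islands of each mark whose summits exceed that mark's median height, 32 members had H3K4me3, against 37.1% of all genes, and 1 member, Racgap1, had H3K27me3, against 16.9%.

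The H3K4me3 islands of the members were of middling size. Of the members, 30 had no other protein-coding gene within 1 kb of an end, and all 30 carried the mark, against 51.6% of such genes. Over all 40 marked members the median width was 4.10 kb (quartiles 3.35 and 5.25, range 1.6 to 7.60 kb), beside 4.20 kb over the 12746 protein-coding genes with the mark (quartiles 2.80 and 5.60, range 0.399 to 28.6 kb). The median height of the 40 was 129 (quartiles 100 and 144, range 34 to 214), beside 112 over all marked genes (quartiles 63 and 151) and 126 over the 9116 genes with H3K4me3 alone (quartiles 86 and 160). No member had an island under 1.6 or over 7.60 kb, and the median height lay close to that of other genes without H3K27me3. Of the 40, 19 were wider than the median marked gene, and 32 (80%, interval 64.4 to 90.9%) had a summit above 90, the median of all H3K4me3 islands, against 62.2% of all marked genes. The marked genes include those with H3K27me3, and this share was not taken over genes with H3K4me3 alone. The 38 members with H3K4me3 alone had a median height of 124, beside 126 over the 9116 such genes.

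**Figure D1:**
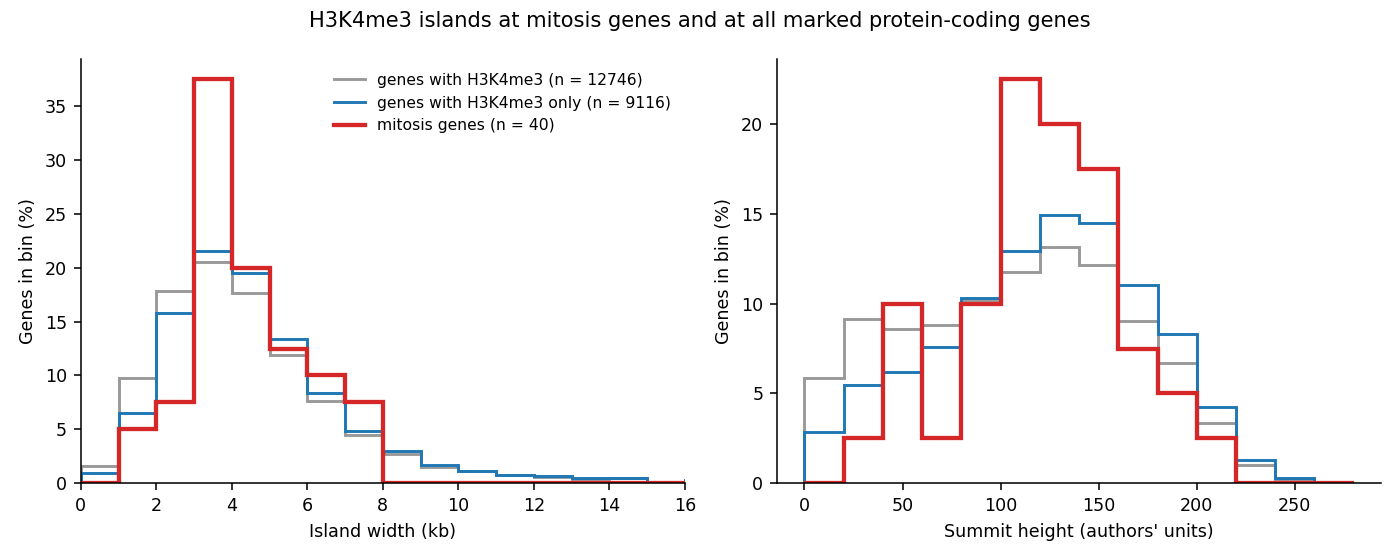
Distribution of H3K4me3 island width (left, kb, cut at 16 kb) and summit height (right, authors' units) as a percentage of genes per bin, for the 40 marked mitosis genes (red), all 12746 protein-coding genes with H3K4me3 (grey) and the 9116 with H3K4me3 only (blue). Of the 40 mitosis genes 15 lie between 3 and 4 kb, and none exceeds 7.60 kb.

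Promoter sequence was available in the RefSeq promoter table (mm10) for 34 of the 41 members. The windows below show where the elements known from genes of this phase stand, in the member with the highest H3K4me3 summit at its start for 8 of the roles, followed by 2 members chosen after their values were seen, Racgap1 with both marks and Aurka with neither. Each runs from 150 bases before the annotated start to 30 after it, 5′ to 3′ on the strand of the gene. The listed start of Aurka lies inside its gene, and so does its printed window. Capitals mark CCAAT or its complement ATTGG, and the CHR element TTTGAA or its complement TTCAAA.
Mki67, chr7:135716350-135716529, minus strand: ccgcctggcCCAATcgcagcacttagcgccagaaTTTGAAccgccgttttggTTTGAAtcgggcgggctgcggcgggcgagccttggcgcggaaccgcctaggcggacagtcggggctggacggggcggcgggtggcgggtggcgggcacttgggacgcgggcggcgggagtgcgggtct
Anln, chr9:22389177-22389356, minus strand: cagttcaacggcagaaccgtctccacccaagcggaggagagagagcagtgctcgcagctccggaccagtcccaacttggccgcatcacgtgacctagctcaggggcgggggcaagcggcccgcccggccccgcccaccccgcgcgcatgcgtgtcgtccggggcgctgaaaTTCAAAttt
Kif23, chr9:61946770-61946949, minus strand: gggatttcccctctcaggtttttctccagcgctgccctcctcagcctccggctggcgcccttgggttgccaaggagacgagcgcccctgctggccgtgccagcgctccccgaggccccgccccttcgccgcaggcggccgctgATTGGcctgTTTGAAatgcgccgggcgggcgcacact
Nek2, chr1:191821323-191821502, plus strand: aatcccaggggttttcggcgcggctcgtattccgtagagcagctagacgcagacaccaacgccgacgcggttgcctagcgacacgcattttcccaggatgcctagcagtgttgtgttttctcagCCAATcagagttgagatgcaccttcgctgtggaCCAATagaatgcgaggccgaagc
Ncapg, chr5:45669775-45669954, plus strand: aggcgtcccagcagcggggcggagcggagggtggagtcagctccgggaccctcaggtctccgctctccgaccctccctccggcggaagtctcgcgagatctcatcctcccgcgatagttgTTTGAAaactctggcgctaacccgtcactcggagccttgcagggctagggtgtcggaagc
Ube2c, chr2:164769779-164769958, plus strand: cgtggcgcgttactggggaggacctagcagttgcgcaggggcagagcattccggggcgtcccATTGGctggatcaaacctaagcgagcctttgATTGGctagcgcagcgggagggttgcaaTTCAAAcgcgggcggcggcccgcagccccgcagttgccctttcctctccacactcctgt
Cenpe, chr3:135212413-135212592, plus strand: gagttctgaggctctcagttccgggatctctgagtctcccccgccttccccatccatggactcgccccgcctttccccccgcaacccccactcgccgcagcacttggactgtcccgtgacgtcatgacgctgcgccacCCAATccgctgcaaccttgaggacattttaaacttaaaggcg
Ccnb2, chr9:70421525-70421704, minus strand: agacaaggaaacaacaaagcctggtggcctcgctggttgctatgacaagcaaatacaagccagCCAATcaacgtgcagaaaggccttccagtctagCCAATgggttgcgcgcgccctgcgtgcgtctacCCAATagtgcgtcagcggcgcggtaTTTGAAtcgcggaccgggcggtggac
Racgap1, chr15:99651627-99651806, minus strand: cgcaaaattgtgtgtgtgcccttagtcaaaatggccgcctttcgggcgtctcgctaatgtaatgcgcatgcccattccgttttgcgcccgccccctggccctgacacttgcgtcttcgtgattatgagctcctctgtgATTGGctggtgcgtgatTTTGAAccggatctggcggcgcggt
Aurka, chr2:172370541-172370720, minus strand: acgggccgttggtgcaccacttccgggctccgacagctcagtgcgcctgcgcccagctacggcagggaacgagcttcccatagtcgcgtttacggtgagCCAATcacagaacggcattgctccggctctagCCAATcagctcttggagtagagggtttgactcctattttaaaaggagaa

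CHR matches were frequent at the members. TTTGAA, on either strand, stood in 25 of 34 windows of 300 bases (250 before the start and 50 after), or 73.5%, against 16% of 17274 protein-coding promoters and 11.0% of the 10081 promoters with an H3K4me3 island within 1 kb. In the last 150 bases before the start alone, 12 of 34 had it (35.3%), against 7.57% and 4.72%. CCAAT on either strand was found in 26 of 34 windows (76.5%), against 39.6% of all promoters and 38.4% of those with H3K4me3. More than 1 CCAAT was found in 16 of the 34 (47.1%, against 13.6% of all promoters), and 22 had both elements (64.7%, against 6.78%). The members were picked for their function in mitosis, for which these elements are known, and a match is a run of letters and not a shown site.

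Among single genes, Ube2c and Top2a had 6 CCAAT matches each. At Ccnb2, 3 matches began at -87, -54 and -21, at even spacing, with TTTGAA from position 5, counting the first transcribed base as 1. Cdk1 had TTTGAA at -71 and -15 beside 3 CCAAT matches, and Mki67 had TTTGAA at -116 and -98. Nek2 and Cenpe, both printed above, had CCAAT without TTTGAA, and Anln had TTTGAA without CCAAT. Neither element was found at 5 of the 34: Nuf2, Mad2l1, Birc5, Ncaph and Pttg1. The listed starts of Pttg1 and of Kif2c, which had a TTTGAA, lie inside the genes, so their windows are not at the gene ends.

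Genes of DNA replication, which act in the preceding phase, are shown beside them, without a test of the difference. CCAAT was found in 21 of 32 of their promoters (65.6%), TTTGAA in 4 (12.5%) and TTTCCCGC, an E2F site, on either strand in 7 (21.9%). At the mitosis genes TTTCCCGC was found in 1 promoter of 34, that of Ncapg, and in 1.48% of all promoters. The E2F search was for this exact sequence only, so other forms of the site are not counted. It was added after the values of the others had been seen. The motifs were counted separately, and a CCAAT and a TTTGAA match can share 1 base at their edge. In the genome as a whole TTTGAA was found in 23.2% of promoters without an H3K4me3 island, more than in those with one.

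The promoters were CpG-rich. The 300 bases held a median of 24 CpG (range 2 to 34), against 14 in all promoters, 22 in promoters with H3K4me3 and 3 in those without. The lowest count, 2, was that of Kif2c, whose listed start lies inside the gene. The GC content had a median of 58.8% (range 47.3 to 72.7%), against 62.0% in promoters with H3K4me3. Aurka, with no island of either mark, had 24 CpG, 58.0% GC, 2 CCAAT matches and a TTTGAA, values inside the range of the marked members. Its window, too, lies inside the gene.

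**Figure D2:**
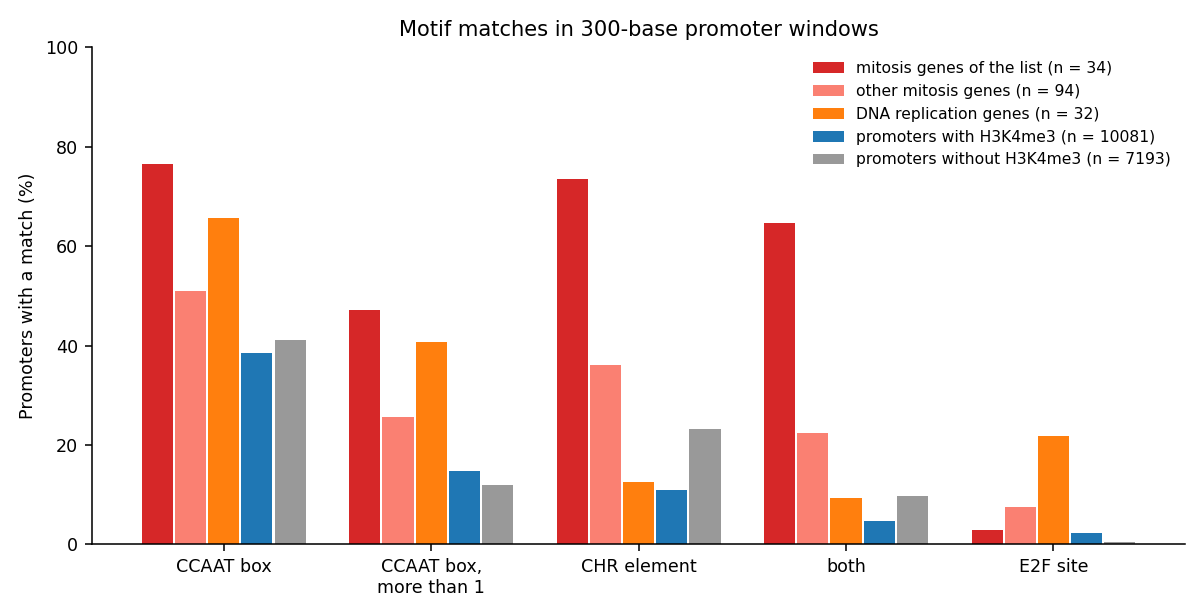
Percentage of 300-base promoter windows with a match to a CCAAT box, to more than 1 CCAAT box, to the CHR element, to both CCAAT and CHR, and to the exact sequence TTTCCCGC (labelled E2F site), for 5 sets of promoters whose numbers stand in the key. CHR matches stand at 73.5% in the mitosis genes, 36.2% in other mitosis genes and 12.5% in DNA replication genes.

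Where the start was known, the island sat on it in a regular way. At 33 of the 34 members with a listed start (97.1%, interval 84.7 to 99.9%) an H3K4me3 island lay within 1 kb of it, against 58.4% of all genes with a listed start. The summit stood 1 to 500 bp downstream of the start at 30 of the 33 (90.9%, interval 75.7 to 98.1%), against 71.3% of all genes with such an island. The median summit position was 159 bp downstream (quartiles 109 and 208), against 189 bp (98 and 326). The islands were lopsided, with a median reach of 0.942 kb upstream and 2.69 kb downstream of the start, against 1.34 and 2.5 kb in all such genes. More of the island lay downstream at 30 of the 33 (against 77.3%).

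The 3 members whose summit was not downstream were Pttg1, Ncapd2 and Kif2c. At all 3 the listed start lies inside the gene, and so does the summit. At Pttg1, the securin gene, the summit stood 67 bp upstream of the listed start. At Ncapd2, a subunit of condensin I, it stood 382 bp upstream of the listed start. That island also meets an end of the mitochondrial ribosomal protein gene Mrpl51. At Kif2c, which encodes a microtubule-depolymerising kinesin, the listed start lies inside the gene, 3788 bp downstream of the summit, and the island ended 0.629 kb before it.

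**Figure D3:**
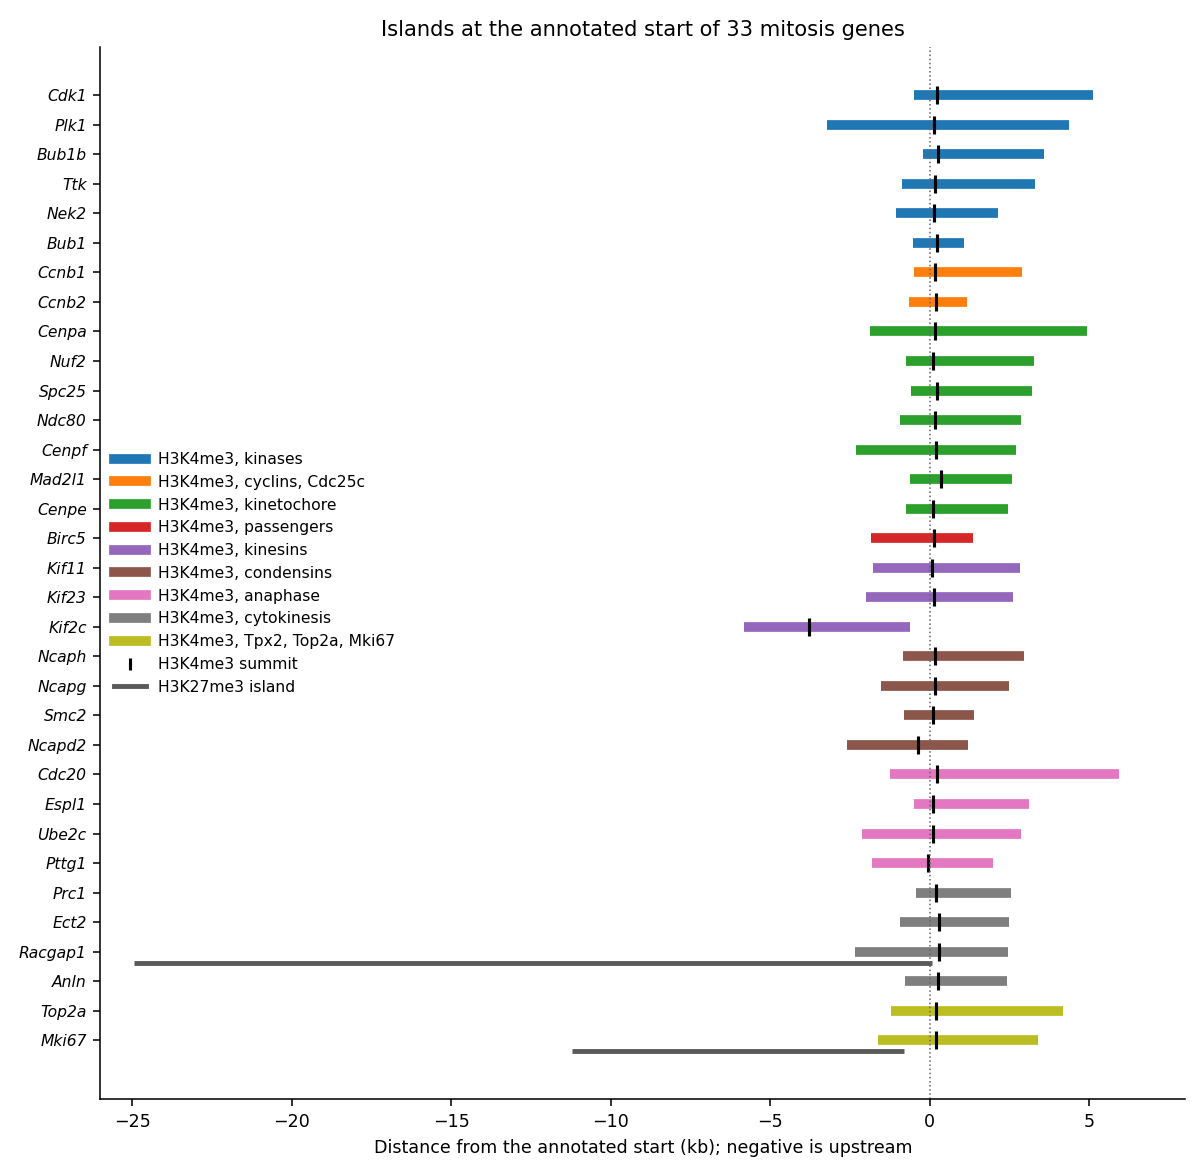
H3K4me3 islands (coloured bars by role) and their summits (black ticks) around the annotated start of the 33 mitosis genes with a listed start and an island, in kb, upstream to the left. Grey lines are the H3K27me3 islands of Racgap1 and Mki67, which reach 24.9 and 11.2 kb upstream.

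The kinases carried H3K4me3 at 7 of 8 genes, over a wide range of widths. Plk1, the Polo kinase, had 7.60 kb (height 113, mm10 chr7:122156201-122163799), and Aurkb, the kinase of the chromosomal passenger complex, had 7.40 kb (height 98, chr11:69043001-69050399). They had the widest islands of the kinases, and those covered 41.8% and 79.1% of the genes. Cdk1, the kinase that starts mitosis, had 5.60 kb (height 140, chr10:69347801-69353399). The checkpoint kinase Ttk, which starts the signal at the kinetochore, had 4.20 kb (height 129), and Nek2, which separates the centrosomes, had 3.20 kb (height 146). The checkpoint pair Bub1 and Bub1b differed in opposite ways on the 2 scales: Bub1 had the narrowest island of all members, 1.6 kb, with a height of 112, and Bub1b had 3.80 kb with a height of 52.

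Aurka had no H3K4me3 island at either end or inside (gene at chr2:172356190-172370886). The nearest one lay 6.79 kb away at the neighbouring Fam210b (6.40 kb, height 161). Cstf1, which overlaps the upstream end of Aurka, had no H3K4me3 island at its ends either, and the nearest H3K27me3 island was 25.6 kb from Aurka. Whether the mark was missing there or fell short of the calling threshold cannot be told apart, because the depth and the calling settings are unknown.

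The cyclins of mitosis had compact islands. Ccna2, cyclin A2, had 3.40 kb with a height of 177, one of the taller summits of the list, and its island also meets an end of Bbs7. Ccnb1 and Ccnb2, the B-type cyclins, had 3.40 and 1.80 kb, with heights of 101 and 107. Cdc25c, the phosphatase that activates Cdk1, had a wide and low island of 5.4 kb with a height of 34, the lowest summit of all members, at percentile 24.0 of all H3K4me3 islands. Between Ccna2 and Cdc25c the order by height was thus the reverse of the order by width.

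All 7 kinetochore genes carried H3K4me3, in a narrower range of widths than the kinases (3.20 to 6.80 kb, median 3.80 kb). The narrower range holds for this grouping only. With Bub1, Bub1b and Ttk counted as kinetochore genes, Cenpe as a kinesin and Aurkb as a passenger, the order was reversed. Kinetochore genes then ran from 1.6 to 6.80 kb and kinases from 3.20 to 7.60 kb. Cenpa, the histone H3 variant of centromeres, had the widest at 6.80 kb (height 129), over 61.8% of the gene. Cenpf, a large coiled-coil protein of the outer kinetochore, had 5.00 kb (height 113), and Cenpe, the kinesin that brings chromosomes to the spindle equator, 3.20 kb (height 137). The NDC80 complex, which binds the microtubule, was represented by Ndc80 (3.80 kb, height 84), Nuf2 (4.0 kb, height 41) and Spc25 (3.80 kb, height 132). Widths within that complex were thus nearly equal while heights ranged from 41 to 132. The island of Ndc80 also meets an end of Spdya. Mad2l1, the checkpoint protein that blocks Cdc20, had 3.20 kb (height 118). Of the passengers, Birc5, or survivin, had 3.20 kb (height 76) and the scaffold Incenp had 5.20 kb (height 139).

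The 4 kinesin genes had islands of 4.60 to 6.40 kb, with a median of 4.90 kb. Kif11, whose motor pushes the spindle poles apart, had 4.60 kb (height 143), and Kif23, the motor of the central spindle, had 4.60 kb (height 155). Kif2c had 5.20 kb with a low summit of 50. Kif20a, a motor of cytokinesis, had 6.40 kb (height 115), in an island that also meets ends of Brd8 and of Cdc23, a subunit of the anaphase-promoting complex. That width is shared between several genes and cannot be given to Kif20a alone.

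Among the condensin genes was the tallest summit of these 4 groups. Smc4, one of the ATPase pair at the core of condensin, had 4.8 kb with a height of 186, in an island shared with Ift80, and its partner Smc2 had 2.2 kb with a height of 87. Ncapg and Ncaph, both of condensin I, had 4.0 and 3.80 kb, with heights of 146 and 108. Ncapd2 had 3.80 kb (height 97) at its start and a further island of 7.0 kb (height 165) at its far end, which also covers ends of Gapdh and Iffo1. The wider island stood for Ncapd2 under the rule, although it lies at the neighbouring Gapdh.

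Set side by side, the median widths were 4.20 kb for kinases, 3.80 kb for kinetochore genes, 4.90 kb for kinesins and 4.0 kb for condensin genes, and the median heights were 113, 118, 129 and 146. The ranges of all 4 groups overlapped on both scales, from 52 to 146 in height for kinases, 41 to 137 for kinetochore genes, 50 to 155 for kinesins and 87 to 186 for condensin genes. The order of the heights depended on which islands were taken. With only the island at the listed start, the median heights were 121 for kinases (n = 6), 118 for kinetochore genes (n = 7), 143 for kinesins (n = 3) and 102.5 for condensin genes (n = 4), so condensin went from the highest to the lowest of the 4. That count leaves out Smc4, which has no listed start, and the island shared with Gapdh. Counting Bub1, Bub1b and Ttk as kinetochore genes, Cenpe as a kinesin and Aurkb as a passenger gave 5.60 kb for the remaining kinases, 3.80 kb for the kinetochore and 4.60 kb for kinesins, with condensin genes as before. The median heights in that grouping were 140, 113 and 137, which moved the kinases from the lowest of the 4 to the second place behind the condensin genes. No test of these differences was made, since genes of 1 library are not replicates.

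**Figure D4:**
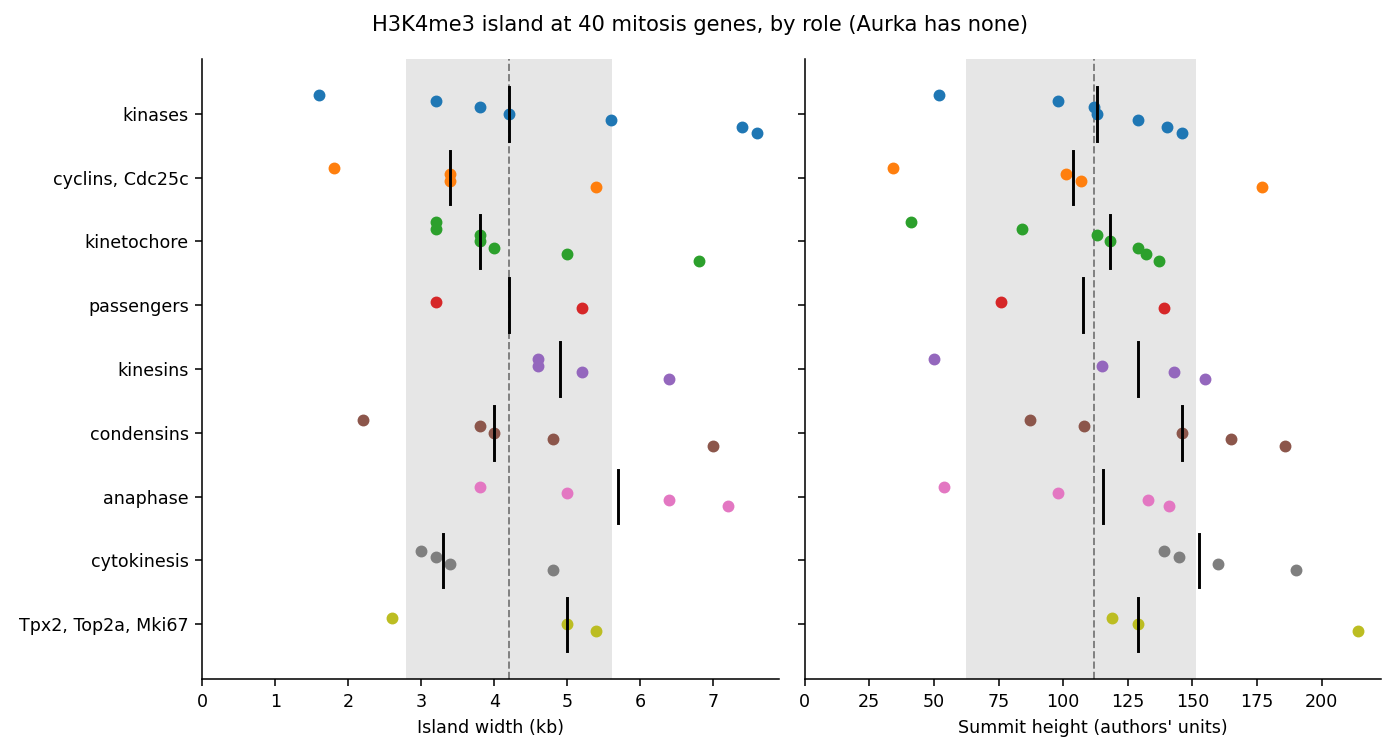
Width (left, kb) and summit height (right, authors' units) of the H3K4me3 island at each of 40 mitosis genes, by role, with the median of each role as a black line. Grey bands and dashed lines give the quartiles and the median over all protein-coding genes with H3K4me3 (4.20 kb and 112). Heights run from 34 at Cdc25c to 214 at Mki67, and the ranges of the roles overlap.

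Genes that end mitosis included short genes lying almost wholly under the mark. Cdc20, the activator of the anaphase-promoting complex, lay wholly under 7.20 kb of H3K4me3 (100% of a gene of 4.44 kb, height 133), in an island that also meets an end of Elovl1. Ube2c, the ubiquitin-conjugating enzyme of that complex, had 96.5% of its 2.97 kb under an island of 5.00 kb (height 141), which reaches Dnttip1. Pttg1 had 3.80 kb (height 54) over 48.0% of the gene. Espl1, separase, had 3.60 kb (height 114) at its start and 6.40 kb (height 98) at its far end, the latter shared with Pfdn5. Over all 41 members the share of the gene under H3K4me3 had a median of 11.6%. That is close to the 10.7% over all genes with H3K4me3 and the 11.6% over genes with H3K4me3 only. Among marked members the share was lowest at Smc2 (2.81%) and Bub1 (3.34%).

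The 4 cytokinesis genes had summits of 139 to 190, with widths of 3.0 to 4.8 kb. Anln, an actin-binding protein of the contractile ring, had 3.20 kb with a height of 190, and Ect2, the exchange factor that activates RhoA at the cell equator, had 3.40 kb with a height of 160. Prc1, which bundles antiparallel microtubules, had 3.0 kb with a height of 145. The island of Anln also meets an end of 9530077C05Rik, and that of Prc1 an end of Rccd1. Racgap1, the partner of Kif23 in centralspindlin, had 4.8 kb with a height of 139. All 4 heights (139 to 190) lay above the median of the 7 marked kinases (113), and Nek2 and Cdk1 among the kinases reached 146 and 140. In the other grouping of roles the kinase median was 140, just above Racgap1. Of the remaining members, Tpx2, which nucleates spindle microtubules, had 2.60 kb (height 119), and Top2a, the decatenating topoisomerase, 5.4 kb (height 129). Mki67, the coat protein of mitotic chromosomes known as Ki-67, had 5.00 kb with a height of 214, the highest summit of all members and at percentile 98.6 of all H3K4me3 islands.

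Height and width were hardly related among the members. Spearman's rho between them was 0.02 over the 40 genes, against 0.48 over all 12746 marked genes, and rho between width and gene length was -0.30 and -0.21. The 2 sets differ in range, since widths run from 1.6 to 7.60 kb at the members and from 0.399 to 28.6 kb at all marked genes. The larger set also includes genes with H3K27me3. No rho was taken over genes matched in width or mark, so the values cannot be compared directly. These are descriptions across genes of 1 library, which share depth and calling settings, and adjoining genes share islands.

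Racgap1 was the member with the stronger H3K27me3. Its H3K27me3 island of 25 kb (height 61, chr15:99651601-99676599) began 55 bp downstream of the start and ran upstream to Asic1, with the summit 18.3 kb upstream of the start. It shared 2.40 kb with the H3K4me3 island (chr15:99649201-99653999), or 50% of that island and 9.60% of its own length. The promoter printed above for Racgap1 lies in the shared stretch. At Mki67 the H3K27me3 island was 10.4 kb wide and low (height 9, chr7:135717201-135727599). It began 0.822 kb upstream of the listed start and 0.751 kb outside the gene, inside the 1 kb limit, had its summit 8.41 kb upstream, and shared 0.799 kb, or 16%, of the H3K4me3 island. The gene body of Mki67 was free of it. A height of 9 is below 12, the median of all H3K27me3 islands, and the count of members with H3K27me3 fell to 1 under a window of 500 bp (against 21.4% of all genes) or when the window had to be covered to 50% (against 19.8%).

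Just outside the limit stood Bub1, whose nearest H3K27me3 island began 1.14 kb beyond the gene and meets an end of Acoxl (14.2 kb, height 37). With a window of 2.5 kb Bub1 joined, at 3 of 41 members against 24.5% of all genes. Birc5 was 2.86 kb from an island at Tmem235, and Kif11 was 3.74 kb from one of 18.8 kb (height 75) at Hhex, a homeobox gene of liver and blood. In all, 5 of the 41 members (12.2%, interval 4.08 to 26.2%) had H3K27me3 within 5 kb, against 28.9% of all genes and 35.1% of genes with H3K4me3. More than 20 kb away were 30 members (73.2%, interval 57.1 to 85.8%), against 61.0% and 52.5%. These sets include genes with H3K27me3 at their own ends, 28.5% of the genes with H3K4me3, so the shares partly repeat the counts above.

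By median the nearest H3K27me3 island was 34.4 kb from a member, 45.4 kb from any protein-coding gene and 24.4 kb from a gene with H3K4me3. The median of the members thus lay between the other medians, while their share with an island close by was below both shares. For genes with H3K4me3 only the median was 56.1 kb (lower quartile 18.4, n = 9116). For the 38 members with H3K4me3 only it was 41.7 kb (lower quartile 24.0), nearer by median and farther by lower quartile. Kinetochore genes were all at least 23.7 kb away (Ndc80) and up to 351 kb (Mad2l1), with a median of 84.4 kb. That holds for the grouping above only: with Bub1, Bub1b and Ttk counted as kinetochore genes and Cenpe as a kinesin, the nearest was 1.14 kb away and the median was 25.7 kb. In the grouping above, the kinases ranged from 1.14 to 105 kb (median 25.1), the kinesins from 3.74 to 77.4 kb (median 33.8) and the condensin genes from 17.7 kb at Ncapd2 to 1287 kb at Smc2 (median 96.2).

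**Figure D5:**
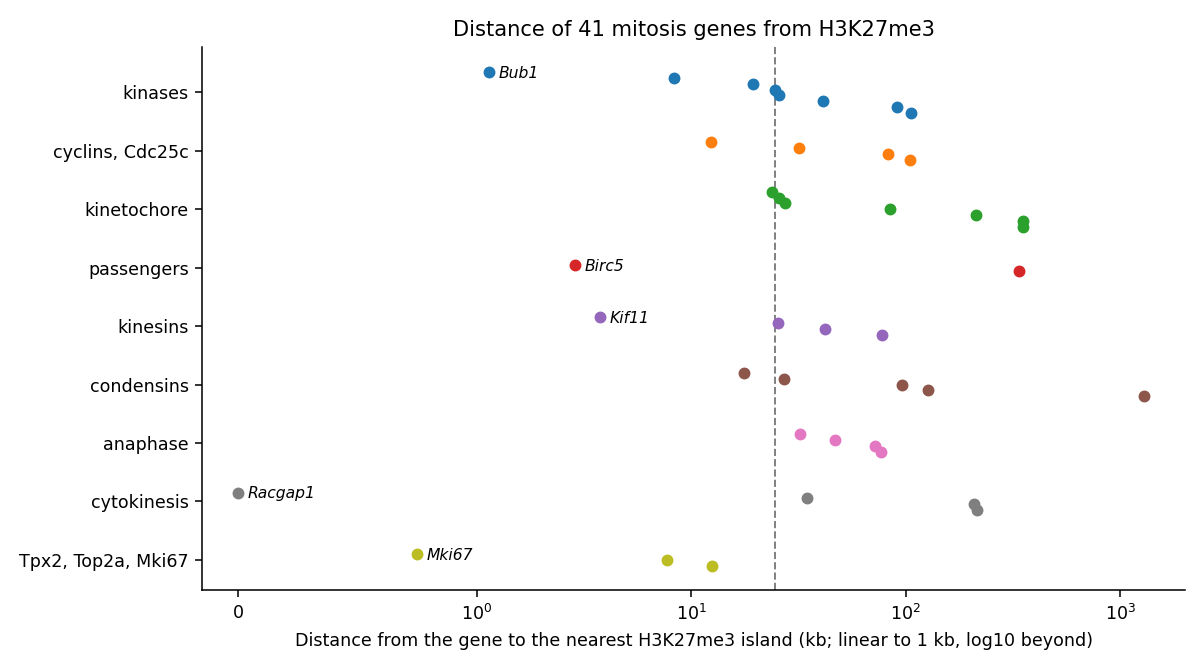
Distance in kb from each of the 41 mitosis genes to the nearest H3K27me3 island, by role, on an axis that is linear to 1 kb and log10 beyond. The dashed line is the median over genes with H3K4me3 (24.4 kb), and the 5 members within 5 kb are named.

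Another 114 genes of the same pathway, listed by function and not among the members, had H3K4me3 at 102 (89.5%, interval 82.3 to 94.4%). H3K27me3 lay at 7 of them (6.14%, interval 2.5 to 12.2%). Over all protein-coding genes the shares were 58.9% and 22.4%, which also stand beside the parts of this list given below. The H3K4me3 islands of the list had a median width of 4.4 kb and height of 124. Kinetochore and checkpoint genes had H3K4me3 at 31 of 34, among them Knl1 (4.8 kb), Dsn1 (3.20 kb), Mis12 (5.80 kb) and Nsl1 (4.60 kb), and both marks at Bub3 (34.2 kb of H3K27me3, height 104). Cenpo, Sgo2a and the Cenpa chaperone Hjurp had neither at their ends, though Sgo2a had H3K4me3 inside. All 8 further kinesins of mitosis, such as Kif4, Kif14, Kif15 and Kif18a (4.20 to 5.4 kb), had H3K4me3 and none had H3K27me3.

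Among other mitotic kinases and phosphatases 12 of 14 had H3K4me3, among them Wee1 (height 202) and Haspin (height 177). Pkmyt1, the membrane kinase that holds Cdk1 inactive, had both marks (9.20 kb of H3K4me3, 13.4 kb of H3K27me3), and Nek6 and the germline kinase Aurkc had neither at their ends. Of 14 further condensin and cohesin genes 11 had H3K4me3, Smc1a both marks, and Rad21, Stag1 and Nipbl had H3K4me3 only inside the gene. The anaphase-promoting complex and its partners had H3K4me3 at 15 of 17, with both marks at Fzr1, Anapc2 and Anapc11 and none at the ends of Anapc15 and Anapc16. The share with both marks in that list, 17.6%, was near the 16.8% of all genes. Spindle and midbody genes had it at 11 of 12, with both marks at Ckap2 and none at Tacc3.

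Of 15 genes of MuvB, its partners and NF-Y, which regulate this programme, 14 had H3K4me3 (93.3%, interval 68.1 to 99.8%, against 58.9% of all genes) and 0 had H3K27me3 (interval up to 21.8%, against 22.4%). Those with H3K4me3, with a median width of 5.10 kb, included Foxm1 (6.80 kb, height 128), Mybl2 (3.60 kb, height 120) and the MuvB subunits Lin9 (5.80 kb, height 163) and Lin37 (14.8 kb, height 111). Nfyc had H3K4me3 only inside the gene.

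DNA replication genes came close to the mitosis genes on both marks. H3K4me3 lay at 37 of 40 (92.5%, interval 79.6 to 98.4%), with a median width of 4.0 kb and height of 111, and H3K27me3 at 3 (7.50%, interval 1.57 to 20.4%), namely Cdc45, Pola1 and Pole. The intervals of both lists overlap, and the difference was not tested. As a comparator from differentiated organs, 24 tissue-restricted genes had H3K4me3 at 4 (Apoa1, Lhb, Sftpc and Ryr1), H3K27me3 at 6 and neither mark at 15. Over all protein-coding genes H3K4me3 lay at 58.9%, H3K27me3 at 22.4% and neither mark at 35.4%. The tissue-restricted genes thus had H3K4me3 less often (16.7%). Their H3K27me3 (25%, interval 9.77 to 46.7%) was near the share of all genes.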

How the data were processed

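Histone marks were mapped by chromatin immunoprecipitation and sequencing in sorted EdU-positive cells, with 1 library for each of 2 marks. The submitters' processing notes name BWA, SICER and mm10, with versions and settings not given in the sources used here, and the series' design text states that no input library was used. The authors deposited islands for both marks and, as a score, the height of the summit of each island, per the file headers. The scaling of that height is not known. All 14361 H3K4me3 and 11341 H3K27me3 islands lie on a grid of 200 bp (100%). The depth is unknown, so no detection limit was set. Signal tracks were not used here.

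Islands were overlapped with gene positions of the RefSeq table (GRCm38.p6, called mm10), on autosomes and X, by code tested on simulated islands (Python 3.11.15, pandas 2.3.3, NumPy 2.4.6, SciPy 1.17.1). Each summit was matched to its island by order and lay inside it. Starts and strands came from the RefSeq promoter table, taking the most upstream start of a gene. Members without an entry there numbered 7. Members were named in full, and of other lists up to 4 genes per state in list order and every gene of a state with 6 or fewer. Promoter windows were taken per role from the member with the highest summit at its start that has an entry there, for the 8 roles with the highest such values. The members and lists were chosen with earlier results of these data known. Alternatives covered the window, its coverage, the islands used, the gene ends used and the grouping of roles.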

Additional observations from a re-analysis of the deposited data

How the results depend on the processing

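The count of members with H3K4me3 was 40 of 41 with windows of 500 bp (57.9% of all protein-coding genes) or 2.5 kb (60.8%), with the gene body added and with islands within 1000 bp merged. It was 39 with a window covered to 50% or more (55.1% of all genes), 32 with the higher-summit 50% of islands, 33 of 34 at the annotated start and 30 of 30 among members with no other protein-coding gene at their ends. H3K27me3, and both marks together, were found at 1 member instead of 2 with a window of 500 bp, with the window covered to 50% and with the higher-summit islands, and at 3 with a window of 2.5 kb. The share of kinases with H3K4me3 rose to 100% among members with free ends, because Aurka is not among them. The median width over members lay between 3.80 and 4.10 kb and the median height between 118.5 and 129 under every alternative run, the annotated start having been added after the data were seen. No paired analysis was possible because each mark has 1 library. Unknown depth limits any reading of a missing island.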
